A study of Mus musculus with 5 samples.

Results

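De novo lipogenesis is the building of fatty acids from carbohydrate, and 10 genes of its enzymes and regulators were examined in the liver of 5 mice: Acly, Acaca, Acacb, Fasn, Me1, Pklr, Thrsp, Pnpla3, Srebf1 and Mlxipl. Members were selected by gene symbol with earlier results of these livers known, and each gene was represented by the probe set that, among those assigned to a single gene symbol, was chosen by the highest mean over the 5 arrays. All 10 were found among 19938 genes with such a probe set. The mice were male wildtype C57BL/6N animals aged 5 to 6 months, and each had received the same 2 agents. Streptozotocin, which destroys insulin-producing beta cells and serves to model type 1 diabetes, had been injected intraperitoneally at 65 mg/kg on 5 successive days at 10 to 16 weeks of age. Bezafibrate, a fibrate that activates peroxisome proliferator-activated receptors, was fed for 8 weeks from 2 weeks after the injections, in chow that held 0.25% or 0.5% by weight. The labels do not say which amount a mouse ate. All 5 livers thus form a single group, streptozotocin with bezafibrate, and no other treatment was analysed here, so neither agent's effect was measured. The question that these arrays answer is how far the genes of the pathway differed between animals given these 2 agents. Whether the mice differed in bezafibrate amount or in age at injection is not known. The part of either in the spread between mice was not tested.

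In the liver, citrate that leaves the mitochondria is split to cytosolic acetyl-CoA, which is carboxylated to malonyl-CoA and then joined into palmitate with reducing power from NADPH. Insulin drives the pathway through the transcription factor SREBP-1c, encoded by Srebf1, and carbohydrate drives it through ChREBP, encoded by Mlxipl. Lipogenic transcripts are known to rise on feeding, and to fall on fasting and in insulin deficiency.

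The lipogenesis genes were highest in mouse 1 and lowest in mouse 4 or mouse 5. Of the 10 genes, 8 were highest in mouse 1, against 23.9% of the 13336 genes tested, and the other 2, Acly and Me1, were highest in mouse 3. Mouse 5 held the lowest value of 7 genes (21.6% of all genes tested) and mouse 4 that of the remaining 3 (4874 of the 13336 genes tested). All 10 genes were higher in mouse 1 than in both mouse 4 and mouse 5, which held for 48.6% of genes tested. The full order mouse 1, 3, 2, 4, 5 from high to low was seen in 6 genes, Fasn, Acaca, Acacb, Thrsp, Mlxipl and Pnpla3, and in 1.7% of genes tested. The ratio of mouse 1 to mouse 5 had a median of 1.57-fold over the 10 genes and ran from 1.27-fold (Me1) to 3.42-fold (Thrsp). These counts describe genes whose spread was known when they were chosen and lend no separate support to the pattern.

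Values are RMA signals on the log2 scale, where each unit doubles the signal. A higher signal of one probe set than of another does not show more RNA. The median over the 10 genes of the deviation from each gene's own mean was 0.35 in mouse 1, 0.03 in mouse 2, 0.28 in mouse 3, -0.31 in mouse 4 and -0.30 in mouse 5. Over all genes tested it was 0.03, 0.03, 0.01, -0.06 and -0.01. The brightness floor, below which 95% of olfactory and vomeronasal receptor probe sets lay on an array, was lowest on the array of mouse 1 (5.59) and highest on that of mouse 4 (6.07), and 4874 of the 13336 genes had their lowest value in mouse 4. The part of this array difference in the members' pattern was not tested. After quantile normalization, which makes the 5 distributions equal, the members' median deviations were 0.35, 0.03, 0.29, -0.30 and -0.32. The deposited values had already been normalized, so this further step does not measure that part.

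**Figure D1:**
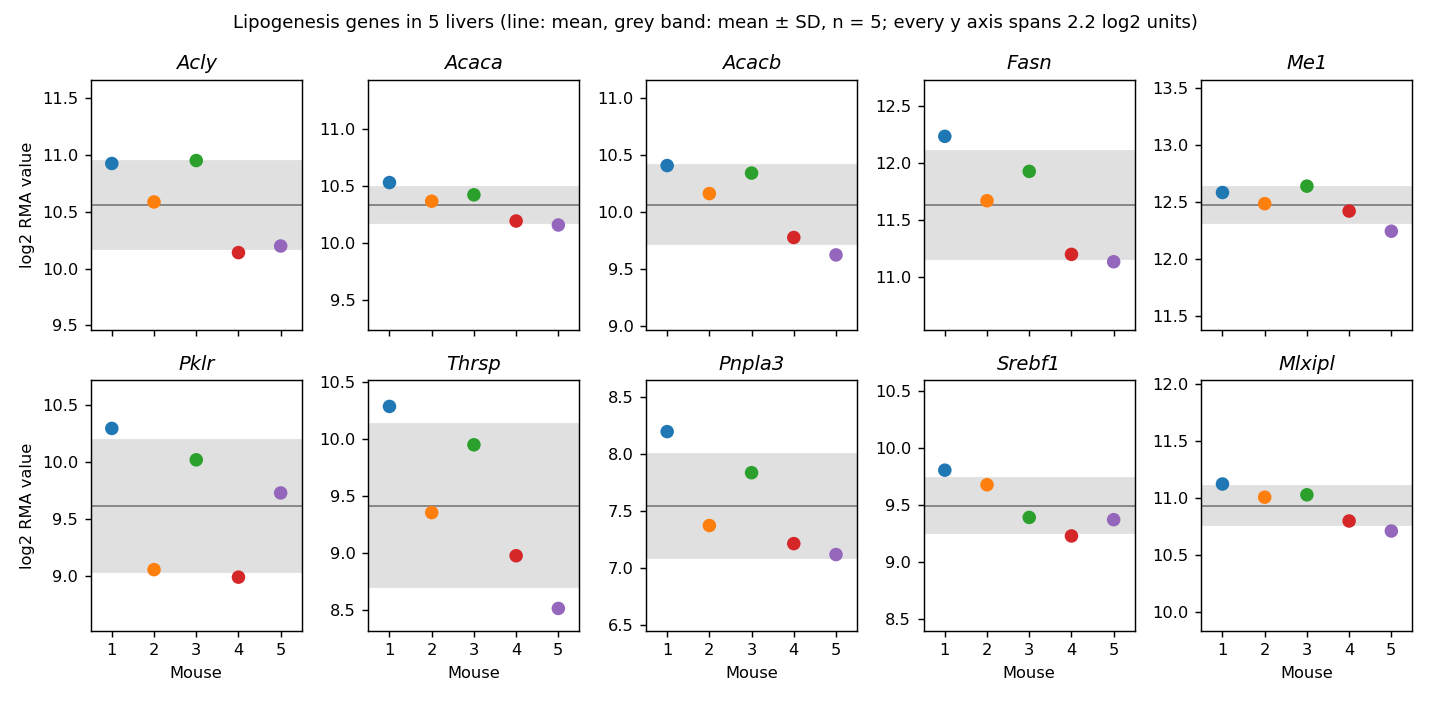
Log2 RMA values (y axis) of the 10 lipogenesis genes in mice 1 to 5 (x axis), 1 point per liver, with the mean (line) and the mean ± SD (grey band, n = 5). Mouse 1 holds the highest point in 8 of the 10 panels, and the panels of Thrsp and Pklr spread widest.

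Promoter sequence is shown for the 4 genes with the widest span between mice and for Srebf1, the gene of SREBP-1c. Fasn, Thrsp and Pnpla3 shared their order of mice, whereas Pklr and Srebf1 each had another. SREBPs bind sterol regulatory elements and act there with NF-Y, which binds CCAAT boxes, and with Sp1, which binds GC boxes. ChREBP binds carbohydrate response elements built from paired E boxes. The 250 bases before a RefSeq start site on GRCm38.p6 are given 5′ to 3′ on the gene's strand. Capitals mark CCAAT (read as ATTGG on the opposite strand), GGGCGG or its complement, the sterol element core TCACCC or its complement, the E box CACGTG, and the pair CACGGG and CCCGTG with 5 bases between them. In Fasn a CCAAT and an ATTGG overlap. The Srebf1 window is 1 of 3, the one that holds the sterol element core. The motifs were settled on with these promoters in view.

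Fasn, chr11:120824548-120824797, minus strand: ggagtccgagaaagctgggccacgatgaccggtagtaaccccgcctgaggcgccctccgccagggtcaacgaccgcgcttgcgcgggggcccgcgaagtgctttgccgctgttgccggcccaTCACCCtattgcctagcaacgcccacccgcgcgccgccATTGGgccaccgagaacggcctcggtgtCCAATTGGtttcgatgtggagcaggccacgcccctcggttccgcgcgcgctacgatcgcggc

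Thrsp, chr7:97417551-97417800, minus strand: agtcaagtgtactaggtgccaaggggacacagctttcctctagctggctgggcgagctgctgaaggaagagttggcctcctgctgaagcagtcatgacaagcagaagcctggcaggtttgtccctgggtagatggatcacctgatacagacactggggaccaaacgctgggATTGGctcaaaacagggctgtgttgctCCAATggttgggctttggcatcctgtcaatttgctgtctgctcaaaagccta

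Pnpla3, chr15:84167566-84167815, plus strand: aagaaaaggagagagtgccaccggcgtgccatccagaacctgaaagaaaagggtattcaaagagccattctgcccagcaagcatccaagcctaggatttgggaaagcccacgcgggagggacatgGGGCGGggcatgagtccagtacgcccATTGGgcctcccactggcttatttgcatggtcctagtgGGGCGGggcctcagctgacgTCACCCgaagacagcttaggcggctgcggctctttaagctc

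Srebf1, chr11:60210472-60210721, minus strand: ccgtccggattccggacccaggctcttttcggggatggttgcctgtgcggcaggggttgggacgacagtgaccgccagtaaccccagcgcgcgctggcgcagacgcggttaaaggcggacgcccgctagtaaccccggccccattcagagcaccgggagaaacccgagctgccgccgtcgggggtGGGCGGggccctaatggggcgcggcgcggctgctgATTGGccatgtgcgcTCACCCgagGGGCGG

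Pklr, chr3:89136373-89136622, plus strand: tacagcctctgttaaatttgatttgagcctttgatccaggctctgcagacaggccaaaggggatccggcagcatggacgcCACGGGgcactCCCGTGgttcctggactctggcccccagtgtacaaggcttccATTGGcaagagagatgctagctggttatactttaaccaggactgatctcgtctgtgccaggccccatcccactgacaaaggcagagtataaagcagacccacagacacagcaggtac

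All 10 genes had promoter entries, 15 start sites in all, and a gene was counted when any of its windows held the motif. CCAAT on either strand was present for 8 of the 10 genes, all but Acaca and Acly, and for 37.5% of 27025 genes with an entry. Counted by window, CCAAT was present in 9 of the 15, against 33.8% of 32851 windows. In Fasn such boxes began 90, 62 and 59 bases before the start, and in Thrsp 79 and 52 bases before it. The core TCACCC was found for Fasn, Me1, Pnpla3 and Srebf1, against 15.6% of all genes. GGGCGG was found for 5 genes (Acly, Me1, Mlxipl, Pnpla3 and Srebf1), against 35.4% of all genes, and CACGTG for Mlxipl alone among them, against 6.86%. The Pklr window was the only 1 of 32851 windows with the pair CACGGG and CCCGTG at this spacing, 170 to 154 bases before the start, in 1 of the gene's 2 windows. The search used the exact letters of the Pklr window, seen beforehand, so its match was fixed in advance. No looser form of the pair was searched, and the count lends no support. Such matches describe the letters in these windows and are not binding sites shown here.

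The enzymes that make malonyl-CoA and palmitate differed in how far they spread. Fasn, the synthase that builds palmitate, measured 12.23, 11.67, 11.93, 11.20 and 11.13 in mice 1 to 5 (mean 11.63 ± 0.47, SD, n = 5). Mouse 1 was 2.15-fold above mouse 5, and mice 4 and 5 lay together at the bottom. Acly, the ATP citrate lyase that supplies cytosolic acetyl-CoA, measured 10.92, 10.59, 10.95, 10.14 and 10.20 (mean 10.56 ± 0.38). Its values in mice 1 and 3 differed by less than its SD, as did those in mice 4 and 5, and its span was 1.75-fold.

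Both acetyl-CoA carboxylases followed the order of Fasn with narrower spans. Acacb, whose product sits at the mitochondrial outer membrane and makes the malonyl-CoA that restrains fatty acid entry, measured 10.41, 10.16, 10.34, 9.78 and 9.62 (mean 10.06 ± 0.35, n = 5), a span of 1.72-fold. Acaca, the cytosolic carboxylase that feeds Fasn, measured 10.53, 10.36, 10.42, 10.19 and 10.16 (mean 10.33 ± 0.16), a span of 1.30-fold. A second Acaca probe set, with a lower mean of 9.78, gave the same order of mice and a span of 1.36-fold.

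Of the genes that supply NADPH and pyruvate, Me1 had a narrow spread and Pklr a wide one. Me1, the cytosolic malic enzyme that yields NADPH, measured 12.58, 12.49, 12.64, 12.42 and 12.24 (mean 12.48 ± 0.15, n = 5). It was highest in mouse 3, and its SD without mouse 5 was 0.098. Its second probe set had a span of 1.28-fold, close to the 1.32-fold of the first. Pklr, the pyruvate kinase of liver and red cells, measured 10.30, 9.06, 10.02, 8.99 and 9.73 (mean 9.62 ± 0.58), a span of 2.47-fold. In Pklr alone among the 10 genes mouse 5 lay above the gene's mean, by 0.11, while mouse 2 lay next to mouse 4 at the bottom.

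Thrsp and Pnpla3, which are not enzymes of the main chain, had wide spans. Thrsp encodes the small protein Spot 14, which promotes fatty acid synthesis, and measured 10.29, 9.35, 9.95, 8.97 and 8.51 in mice 1 to 5 (mean 9.42 ± 0.72, n = 5). The values were spaced out over all 5 mice, with mouse 1 3.42-fold above mouse 5. Pnpla3, a lipase-family gene of lipid droplets induced by SREBP-1c, measured 8.20, 7.38, 7.84, 7.22 and 7.12 (mean 7.55 ± 0.46). Its span was 2.11-fold, and without mouse 1 its SD was 0.319.

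The genes of both transcription factors had smaller SDs than 6 of the other 8 members. Srebf1 measured 9.81, 9.68, 9.39, 9.23 and 9.37 (mean 9.50 ± 0.24, n = 5), a span of 1.49-fold. Its order departed from that of Fasn: mouse 2 was second and mouse 3 lay below the mean, by 0.10. The probe set does not separate the SREBP-1a and SREBP-1c transcripts. Mlxipl measured 11.12, 11.01, 11.03, 10.80 and 10.71 (mean 10.94 ± 0.17), in the order of Fasn over a span of 1.33-fold. Transcript levels say nothing of the proteolytic activation of SREBP-1c or the entry of ChREBP into the nucleus.

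Thrsp was the 1 member whose variance between mice exceeded that expected at its level (limma fit with an upper-tail F test, Benjamini-Hochberg adjusted p = 0.0393), against 0.357% of 14586 probe sets tested. Fasn (adjusted p = 0.076) and Pklr (0.077) came next in the same limma fit, and the other 7 genes had adjusted p values of 0.205 (Acly) to 0.992 (Acaca). Before adjustment 7 of the 10 genes had p under 0.05 by limma, against 6.34% of probe sets tested. The median SD of the 10 genes was 0.366 and the median span 1.74-fold, where all genes tested had medians of 0.117 and 1.22-fold. All 10 genes lay above the floor on all 5 arrays, and all had an SD above the median of genes tested. The call on Thrsp was lost without mouse 1, 2, 3 or 4 (limma adjusted p of 0.0638 to 0.168) and kept without mouse 5 (0.025), where Fasn (0.025) and Pklr (0.0132) were called too. It was also lost under 7 of the 8 other settings that used all mice (limma adjusted p of 0.0521 to 0.295), and all 3 genes were called with arrays centred on their medians (0.0046 to 0.0167).

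**Figure D2:**
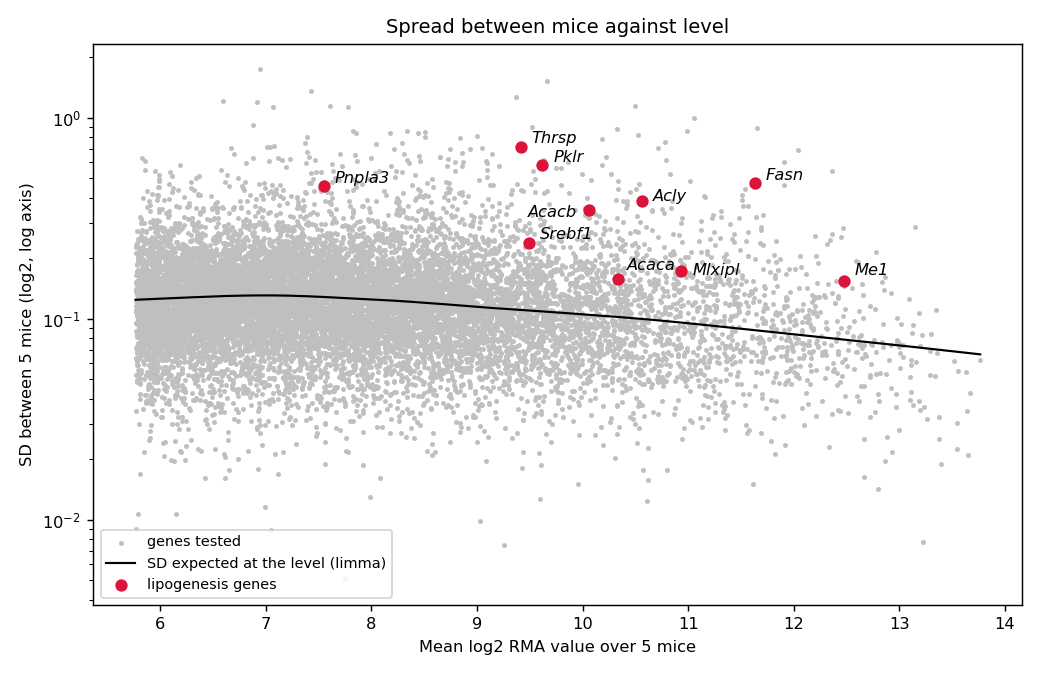
SD between the 5 mice (y axis, log scale) against the mean log2 RMA value (x axis) for 13336 genes tested (grey), the 10 lipogenesis genes (red) and the SD that limma expects at each level (line). All 10 genes lie above the line, Thrsp highest with an SD of 0.72.

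Other genes of the pathway were taken from lists of its neighbouring steps, and 0 of their 94 measured genes had a variance that passed after adjustment in the limma fit (19 at an unadjusted p under 0.05). Over all probe sets tested the shares were 0.357% and 6.34%. Among 9 measured genes of NADPH and acetyl-CoA supply, 5 were highest in mouse 1 and 5 lowest in mouse 5, with a median SD of 0.160. Aacs, which activates acetoacetate for lipid synthesis in the cytosol, measured 9.84, 9.42, 9.52, 8.66 and 8.24, in the order of Fasn over 3.04-fold (limma adjusted p = 0.0609). Acss2, which makes acetyl-CoA from acetate, spanned 1.85-fold and was highest in mouse 3, as were Acly and Me1. Rpia, of the pentose phosphate pathway, spanned 1.47-fold and was lowest in mouse 3.

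Genes of sugar entry were highest in mouse 1 in 5 of 6 cases and had a median SD of 0.174. Khk, the fructokinase, measured 10.93, 10.37, 10.58, 10.30 and 10.28, a span of 1.58-fold. Tkfc, which acts on the next steps of fructose breakdown, measured 11.14, 10.63, 10.84, 10.57 and 11.12, so mouse 5 came second, and mice 2 and 4 were lowest as they were for Pklr. The glucose transporter gene Slc2a2 spanned 1.37-fold and was highest in mouse 3.

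The 7 genes of SREBP processing had a median SD of 0.165, above the 0.117 of all genes tested, and 4 of them were highest in mouse 1. Insig1, an SREBP target whose product holds SREBP in the endoplasmic reticulum, measured 12.01, 11.90, 11.91, 11.70 and 11.61, in the order of Fasn over 1.32-fold. Insig2, which has the same role, measured 11.82, 12.16, 11.72, 11.73 and 11.72, with mouse 2 alone above the rest. Srebf2, the cholesterol-directed member of the family, spanned 1.33-fold in the order of Fasn, and the ubiquitin ligase gene Rnf145 spanned 1.38-fold with mouse 3 lowest.

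The 13 transcription partners, a median SD of 0.120, included Nr1h3, the liver X receptor that induces Srebf1, at 10.03, 9.99, 9.90, 9.76 and 9.76. Their widest were Bhlhe40, Sp1 and Ppargc1b, with SDs of 0.21, 0.18 and 0.14. The 11 genes that control the carboxylases had a median SD of 0.111, near that of all genes. Mid1ip1, a relative of Thrsp that promotes carboxylase polymerization, measured 9.15, 9.09, 8.90, 8.61 and 8.81, which is the order of Srebf1. The AMP-activated kinase subunit genes Prkab1 and Prkaa2 had SDs of 0.18 and 0.15.

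Steps that follow palmitate were mixed. Of 11 genes of elongation and desaturation 6 were highest in mouse 1, and their median SD was 0.111. Elovl6, which lengthens palmitate, measured 12.00, 11.49, 11.61, 11.29 and 11.43, whereas the desaturase gene Scd1 stayed within 13.60 and 13.72. The highest signal on an array lay between 14.00 and 14.12, close to Scd1. Whether differences between mice are compressed at such signals was not tested. Scd2 measured 11.57, 10.95, 11.36, 10.84 and 11.43, with mouse 5 second. Hsd17b12, of elongation, spanned 1.29-fold and was lowest in mouse 5. Among 10 genes of glycerolipid assembly 5 were highest in mouse 2 and 3 in mouse 1. Those 3, Agpat2 (1.73-fold), Gpam (1.75-fold) and Lpin1 (1.58-fold), were also the widest.

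**Figure D3:**
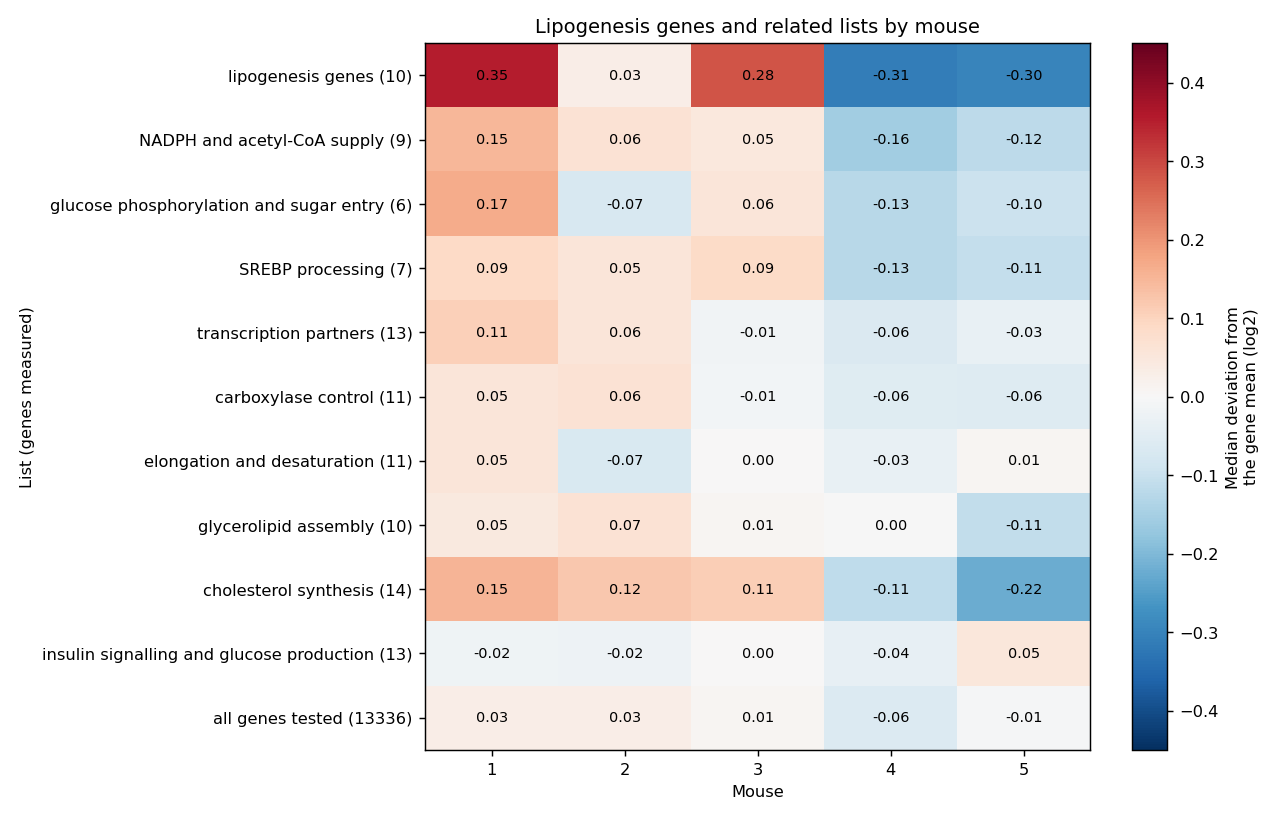
Median deviation from the gene mean (log2, colour and printed value) of the lipogenesis genes, of related lists and of all genes tested (rows, with the number of genes measured) in mice 1 to 5 (columns). The lipogenesis row runs from 0.35 in mouse 1 to -0.31 in mouse 4, and cholesterol synthesis from 0.15 in mouse 1 to -0.22 in mouse 5.

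All 14 genes of cholesterol synthesis were higher in mouse 1 than in mouse 4 and in mouse 5, as the lipogenesis genes were, with 8 highest in mouse 1 and 11 lowest in mouse 5. They had median deviations of 0.15, 0.12, 0.11, -0.11 and -0.22 in mice 1 to 5, so mouse 2 lay near mice 1 and 3, whereas the lipogenesis genes had 0.03 there, a difference that was not tested. Their widest were Mvd, Pmvk and Dhcr7, with SDs of 0.32, 0.29 and 0.25. The 13 genes of insulin signalling and glucose production had median deviations between -0.04 and 0.05. Their widest genes were low where Fasn was highest. Igfbp1, which insulin represses, measured 9.61, 10.25, 10.50, 10.53 and 10.77 in mice 1 to 5. Irs2, an insulin receptor substrate, had its lowest value of 7.64 in mouse 1, and the others held 8.17 to 8.28. Pck1, of glucose production, measured 11.20 in both mouse 1 and mouse 2 and 11.85 in mouse 4. None of the 3 passed the variance test (limma adjusted p of 0.144, 0.77 and 0.404).

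The genes most like the members' median profile, by the root mean square difference of centred log2 values over the 5 mice, were Mvd (0.0318), St6gal1 (0.0347), Col14a1 (0.0361), Fzd8 (0.045), Abcb10 (0.0478), Slc1a2 (0.0492), S1pr1 (0.0571) and Pdilt (0.0617). The median difference over all genes tested was 0.273. Among the members Acacb (0.0723) and Acly (0.0739) lay closest to that profile and Pklr (0.384) and Thrsp (0.381) farthest. The difference counts the size of a gene's spread as well as its order of mice. Thrsp had the order of Fasn over a wider span, whereas Pklr had another order. St6gal1 encodes a sialyltransferase, Fzd8 a Wnt receptor and S1pr1 a sphingosine 1-phosphate receptor. Mvd, a mevalonate pathway enzyme gene, measured 9.16, 8.81, 9.05, 8.42 and 8.51.

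The samples carried the markers of liver. Of 62 markers of 10 cell types that were bright enough to test, 0 had a variance that passed in the limma fit. The lowest limma adjusted p was 0.0976 (Alas2), and 16 markers had an unadjusted p under 0.05. The shares over all probe sets tested were 0.357% after adjustment and 6.34% before it. Of these 16 markers, 5 were of Kupffer cells and macrophages and 4 of skeletal muscle. All 11 measured hepatocyte markers lay above the floor on all arrays, and the list's median deviation lay between -0.02 and 0.04. Alb stayed between 13.57 and 13.72, which like Scd1 is close to the highest signals of the arrays. Adipocytes also make fatty acids: Adipoq (3.86 to 4.14) and Lep (5.00 to 5.42), which define them, lay below the floor on all 5 arrays, and 6 of 9 measured adipocyte markers, Cidea included, lay above it on all arrays. The mean level of the adipocyte list ran from 7.46 in mouse 2 to 7.61 in mouse 3. Kupffer cell and macrophage markers were highest in mouse 1 in 9 of 10 cases, Vsig4 in mouse 5 being the exception, and their mean level ran from 8.56 in mouse 4 to 9.13 in mouse 1. These macrophage markers had median deviations of 0.30, -0.14, -0.06, -0.23 and 0.08 in mice 1 to 5. The lipogenesis genes had 0.35, 0.03, 0.28, -0.31 and -0.30.

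Skeletal muscle markers (7 of 10 highest in mouse 1, mean level 5.90 to 6.44, 5 of 10 above the floor on all arrays, Acta1 included) and stellate cell markers (8 of 10 highest in mouse 1, mean level 8.32 to 8.55, Dcn included) also had their highest mean level in mouse 1. Of 4 measured erythroid markers 2 lay below the floor on all arrays (Epb42 and Rhag), the mean level ran from 6.07 to 6.50, and Alas2, of heme synthesis, measured 9.71, 8.91, 9.64, 8.48 and 8.73. The mean levels of exocrine pancreas (5.58 to 5.78, Cela1 included), cholangiocyte (5.98 to 6.34, Sox9 included), neutrophil (5.25 to 5.43, Elane included) and lymphocyte markers (5.55 to 5.82, Cd79b included) were not highest in mouse 1. Of their measured markers, in that order, 4 of 8, 4 of 6, 2 of 8 and 2 of 7 lay above the floor on all arrays. These means thus include values below the floor, which itself was lowest on the array of mouse 1. The part of these cell types in the lipogenesis values was not tested, and in whole liver fewer cells of a type and less RNA per cell cannot be told apart.

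**Figure D4:**
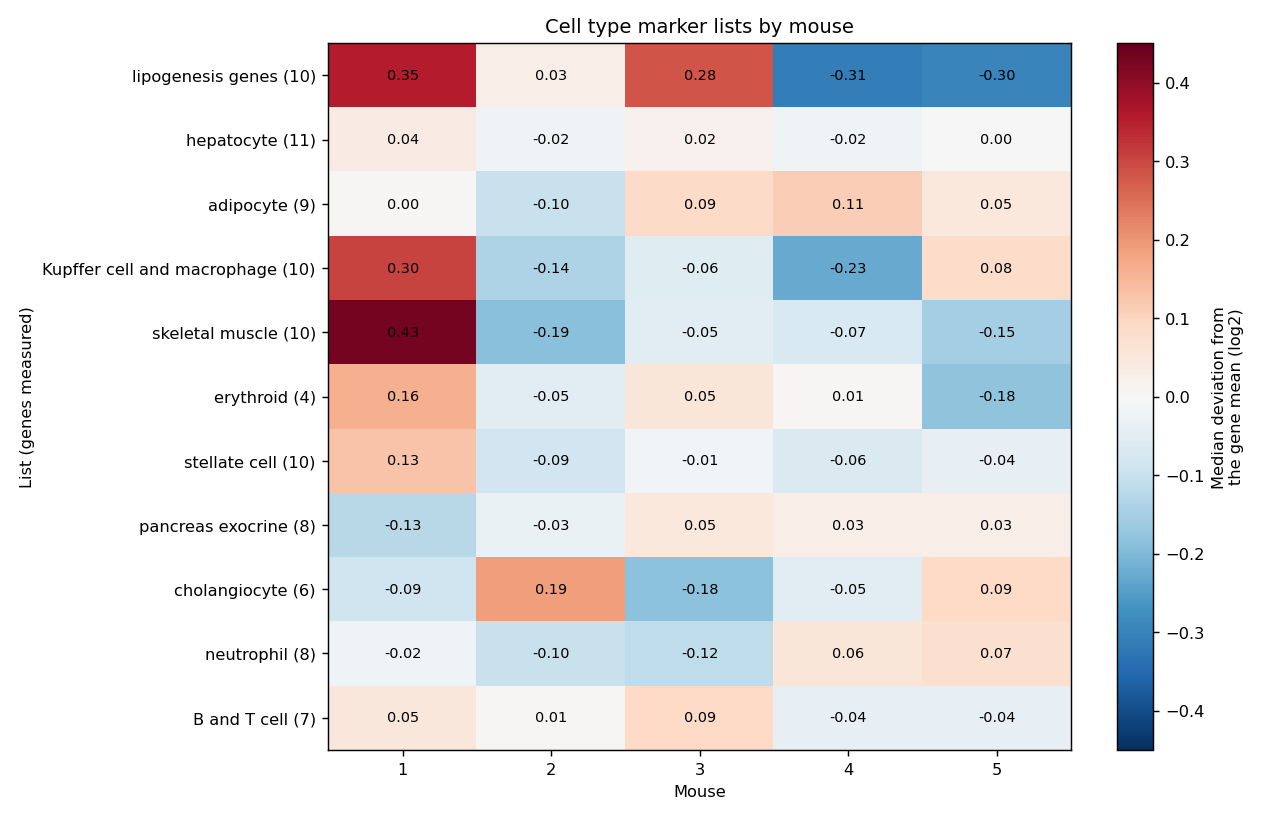
Median deviation from the gene mean (log2, colour and printed value) of the lipogenesis genes and of 10 cell type marker lists (rows, with the number of genes measured) in mice 1 to 5 (columns). In mouse 1 the lipogenesis genes have 0.35 and the skeletal muscle and macrophage markers 0.43 and 0.30. In mouse 3 the lipogenesis genes have 0.28 and these markers -0.05 and -0.06.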

How the data were processed

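Total RNA of 5 mouse livers was hybridised to Affymetrix whole-transcript arrays, 1 per mouse. The authors deposited log2 values per probe set, made with RMA and Affymetrix Expression Console 1.2 per the submitters' processing notes, so background correction and normalization were done before deposit and values near background are compressed. The probes' genome build was not given in the sources used here. Array medians lay between 6.22 and 6.31, and pairs of arrays correlated across probe sets with Pearson's r of 0.971 to 0.993.

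Of 35556 probe sets, 21789 had 1 gene symbol in the platform annotation, 1621 several and 12146 none; 21698 matched the RefSeq table of GRCm38.p6 by gene ID. The floor used 1210 receptor probe sets. Tested were 14586 probe sets of 13336 genes with a mean above 5.77. With limma 3.58.1 (statmod 1.5.0, R 4.3.3) each probe set was fitted by its mean alone, and its variance, on 4 degrees of freedom, was compared with that of the robust trended fit by an upper-tail F test (Benjamini-Hochberg, 0.05). The test was also run on data simulated from the fitted variance model that it assumes, with raised variance in some probe sets. That run cannot vouch for the calls on these arrays. Summaries used pandas 2.3.3.

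The members and lists were chosen with earlier results of these data known. Named were all members, the 3 widest genes and a few set regulators of each pathway list, the gene with the highest mean signal of each marker list and the 8 genes most like the members. Listed genes without a probe set of 1 symbol were not analysed here. Alternatives covered normalization, filters, variance fits, probe set summaries and leaving out each mouse. The labels call the arrays biological replicates, and precision is limited by their number.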

Additional observations from a re-analysis of the deposited data

Results flagged for a closer look

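Among 57 named genes and 20 list medians, 4 had a single mouse far from the other 4, by a gap of over 0.71 of the whole range; chance gives this for about 1 in 20. The gap was 0.758 of the range for Insig2 (mouse 2 high), 0.846 for Rnf145 (mouse 3 low), 0.821 for Irs2 (mouse 1 low) and 0.778 for the median deviation of skeletal muscle markers (mouse 1 high). None of the 10 lipogenesis genes passed this mark.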

How the results depend on the processing

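The members' median deviation in each mouse moved by less than 0.3125 under all 12 alternatives that could be run for a mouse. That mark is the SD of the median deviations over the 5 mice. It is about as large as the deviations themselves, so staying within it is a weak check. The median deviation ranged from 0.267 to 0.439 in mouse 1, from -0.06 to 0.12 in mouse 2, from 0.170 to 0.406 in mouse 3, from -0.42 to -0.19 in mouse 4 and from -0.36 to -0.23 in mouse 5. Between 8 and 10 genes were highest in mouse 1 and between 6 and 9 lowest in mouse 5, and the median SD lay between 0.326 and 0.42 under 13 alternatives.

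The count of lipogenesis genes called by limma, 1, was not stable. It was 3 with arrays centred on their medians and 0 with quantile normalization, with the floor required on all arrays, with no filter, without the robust step, without the trend, over all probe sets or with the mean of a gene's probe sets (6 or 7 genes at an unadjusted p under 0.05 in each), and 0 to 3 with 1 mouse left out. The limma adjusted p of Thrsp under the settings that used all mice lay between 0.0046 and 0.295. The 52 probe sets called became 142 with arrays centred on their medians, 29 with the floor on all arrays, 18 without the robust step, 24 without the trend, 31 with the mean of a gene's probe sets and 0 over all probe sets (where 1385 had an unadjusted p below 0.05), and 0 to 69 with 1 mouse left out (the 0, with 864 at an unadjusted p under 0.05, without mouse 4). The cause was not tested. Values near the floor limit low genes; all members lay above it. No paired analysis was possible because there is a single group.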

Other observations

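Pklr, Tkfc and Scd2 shared a placing of the mice that Fasn did not have, noticed after the values were seen. In each, mouse 4 was lowest and mouse 2 next to it, while mouse 5 lay above the gene's mean, by 0.11 for Pklr, 0.26 for Tkfc and 0.20 for Scd2. Other listed genes shared this placing, among them Tecr, Prkag2, Rnf139, the hepatocyte marker Apoc3 and the macrophage markers Clec4f and Csf1r. Mouse 4 was lowest in 4874 of the 13336 genes tested, and the share of genes with the full placing was not counted. In Fasn mouse 5 lay 0.50 below the mean and mouse 2 0.04 above it.

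Abcb10, a mitochondrial transporter gene linked to heme synthesis in red cell precursors, was among the genes closest to the lipogenesis profile, and Alas2, the erythroid form of the first enzyme of heme synthesis, had the same 3 mice on top. Alas2 spanned 2.35-fold with an SD of 0.55 and Abcb10 1.55-fold with an SD of 0.32, and neither passed the variance test (limma adjusted p of 0.0976 and 0.593). Slc4a1, the other erythroid marker above the floor on all arrays, had the order of mice 1, 3, 4, 2, 5. How many of all genes had the same mice on top was not counted, and a link to heme synthesis was not tested.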
